A study of Mus musculus with 4 samples.

Results

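The epithelial regulators described here were 10 genes of the program that holds an epithelium together: the adhesion gene *Epcam*, the grainyhead-like genes *Grhl1*, *Grhl2* and *Grhl3*, the zinc finger gene *Ovol2*, the splicing regulator genes *Esrp1* and *Esrp2*, the protease inhibitor genes *Spint1* and *Spint2*, and *Rab25*. They were picked by name, with earlier results of these data known. Every Affymetrix probe set whose only gene symbol in the platform annotation was on that list was taken. This gave 16 probe sets out of 45101 and 10 genes out of 18194. The samples came from BALB/c mouse embryos near E9.75, whose tracheoesophageal anlage gave 2 arrays of the dorsal part and 2 of the ventral part, with no genetic change or treatment in either group. The labels call the arrays of a part biological replicates without naming separate litters or pools, so the p-values cover the spread among these arrays, which may be technical. The anlage, a foregut tube that has just begun to swell ventrally as the lung bud, was cut by hand, and each sample held epithelium together with its mesenchyme and neighbouring tissue. The deposited values were made by RMA, which corrects background, normalizes arrays and gives a value per probe set, and they are read here as log2. The question was whether the share of epithelium, as far as these genes measure it, differed between the parts. In such mixed tissue, fewer epithelial cells and less of the RNA per epithelial cell cannot be told apart.

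Grainyhead-like factors bind the promoters and enhancers of junction genes and keep epithelial cells joined, and *Ovol2* represses genes of the mesenchymal state. The ESRP proteins hold the epithelial splice forms of receptors such as *Fgfr2*. *Epcam* encodes a surface adhesion protein of endodermal and other epithelia, the Kunitz-type inhibitors encoded by *Spint1* and *Spint2* restrain matriptase and related membrane proteases, and RAB25 recycles vesicles to the apical side. In the foregut these proteins belong to the endodermal lining, while the surrounding mesenchyme largely lacks them.

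Nearly all of these genes had somewhat higher values in the ventral part, but only *Grhl2* passed the test, by 1 of its probe sets. In value, 15 of the 16 probe sets were higher ventrally, with a median dorsal minus ventral difference of -0.36 on the log2 scale, where the 34958 probe sets with 1 gene symbol had a median of 0.02. A probe set was tested with limma when at least 2 arrays had it above their 40th percentile, and 14 of the 16 did, with at least 1 for each gene. Of these 14, 1 was higher ventrally at an adjusted p under 0.05 and none was higher dorsally, while 2.56% of the 23336 tested probe sets were called ventrally and 3.28% dorsally. At an unadjusted p under 0.05, 6 of the 14 were higher ventrally and 0 dorsally, beside 6.13% of all tested probe sets in the ventral direction. Both ventral arrays lay above both dorsal arrays for 9 of the 14, beside 16.4% of all tested probe sets. The median difference of the 14 was -0.45, and that of all tested probe sets was 0.08. In value, 13 of the 14 were higher ventrally, beside 38.0% of all tested probe sets. *Grhl3* and *Ovol2* passed the filter only through the ventral arrays, so their place among the 14 already depends on a higher ventral value. The sizes were small, with differences from -0.77 to 0.18.

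Some facts of the arrays bear on these values. Over the tested probe sets the median gap between replicates was 0.08 dorsally and 0.27 ventrally, and for the 16 probe sets these medians were 0.11 and 0.29. Ventral replicate 1 was the higher of the ventral arrays for 12 of the 16, and the matching share of all probe sets was not counted. The ventral arrays also differed as a whole. The upper quartile was 8.02 on ventral array 1 and 7.75 on ventral array 2, while the medians were 5.42 and 5.47. Whether the count of 12 goes beyond this array-wide difference was not tested. The poly-A control RNAs were 2.19 higher on dorsal array 2 than on dorsal array 1 and 1.83 higher on ventral array 2 than on ventral array 1, so differences within each number are given. With 2 arrays against 2, the lowest two-sided p of an exact permutation test is 0.333, and precision is limited by how few arrays there are.

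**Figure D1:**
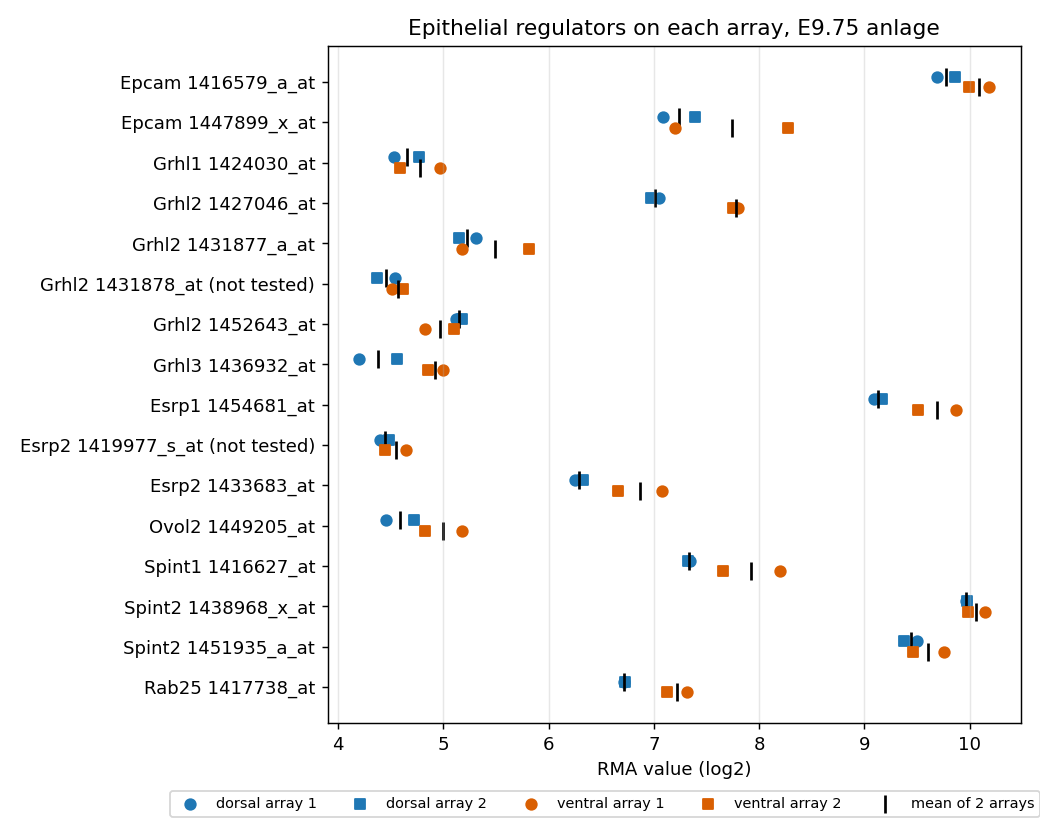
RMA values (log2, horizontal axis) of the 16 probe sets of the 10 genes (vertical axis), with 1 point per array, blue for dorsal and orange for ventral, and a bar at the mean of the 2 arrays of a part. The ventral points of *Grhl2* 1427046_at, near 7.8, lie apart from the dorsal points near 7.0, and those of *Spint2* overlap or nearly touch the dorsal ones.

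Of the grainyhead-like genes, *Grhl2* (chr15:37232821-37363569 on GRCm38.p6), needed for neural tube closure and lung epithelium in mice, was 1.71-fold higher in the ventral part. Its probe set 1427046_at read 7.05 and 6.97 dorsally and 7.80 and 7.75 ventrally. The arrays of each part nearly coincided and the parts did not overlap. The log2 difference was -0.77 (standard error 0.16, 95% interval -1.13 to -0.41, adjusted p = 0.0162 from limma). The number 1 pair of arrays, dorsal against ventral, gave -0.76 and the number 2 pair -0.78. Without dorsal replicate 1 the difference was -0.81 and without dorsal replicate 2 it was -0.73, and neither passed the test. Without ventral replicate 1 the difference was -0.75 and without ventral replicate 2 it was -0.79.

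The other probe sets of *Grhl2* did not share that difference. Probe set 1431877_a_at read 5.31 and 5.15 dorsally and 5.18 and 5.81 ventrally, and only ventral array 2 stood above the rest. Probe set 1452643_at read 5.12 and 5.18 dorsally and 4.83 and 5.10 ventrally, so both dorsal arrays lay above both ventral arrays. Their differences were -0.26 (95% interval -0.74 to 0.21) and 0.18 (95% interval -0.20 to 0.56), with adjusted p of 0.607 and 0.654 from limma. Probe set 1431878_at lay between 4.37 and 4.62, below the 40th percentile on all 4 arrays, and was not tested. Probe set 1427046_at was the brightest of the 4, at percentiles 66.2 to 66.8 dorsally and 73.2 to 74.99 ventrally, and averaged over its 4 probe sets *Grhl2* differed by -0.24 and did not pass (adjusted p = 0.428 from limma). The ventral call of *Grhl2* therefore rested on that probe set. Which transcripts each probe set reads was not examined.

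*Grhl3*, which acts in the surface ectoderm during neural tube closure, read 4.20 and 4.56 dorsally and 4.99 and 4.85 ventrally. Both ventral arrays were above both dorsal arrays, at low values that in the dorsal part lay below the 40th percentile. The difference was -0.54 (95% interval -0.94 to -0.14, adjusted p = 0.139 from limma), and by number -0.79 and -0.29. *Grhl1*, a relative with roles in the epidermis, read 4.53 and 4.77 dorsally and 4.97 and 4.59 ventrally, and the parts overlapped. Its difference was -0.13 (95% interval -0.54 to 0.29, adjusted p = 0.784 from limma), and by number -0.43 and 0.18. *Grhl2* 1427046_at was the only grainyhead-like probe set above the median of every array, though probe sets of different genes cannot be ranked as transcript levels. Of the other *Grhl2* probe sets, 1452643_at and 1431878_at lay below the median of every array. Probe set 1431877_a_at was above it only on ventral array 2.

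*Ovol2* read 4.45 and 4.72 dorsally and 5.17 and 4.82 ventrally, again low values. The ventral arrays lay above the dorsal arrays by a narrow margin, and the dorsal ones were below the 40th percentile. The difference was -0.41 (95% interval -0.82 to 0.00223, adjusted p = 0.316 from limma), and by number -0.72 and -0.10.

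The splicing regulators had similar differences. *Esrp1* read 9.09 and 9.17 dorsally and 9.87 and 9.51 ventrally, at percentiles 83.8 to 88.9 of the arrays. *Esrp2* read 6.25 and 6.32 dorsally and 7.08 and 6.66 ventrally by probe set 1433683_at. For both genes the dorsal arrays lay close together, the ventral arrays lay apart from each other and no array of one part entered the range of the other. The difference of *Esrp1* was -0.56 (standard error 0.18, 95% interval -0.96 to -0.17, adjusted p = 0.117 from limma) and that of *Esrp2* was -0.58 (standard error 0.18, 95% interval -0.99 to -0.18, adjusted p = 0.115 from limma). The number 1 pair of arrays gave -0.78 and -0.83, and the number 2 pair gave -0.34 for both genes. When only the brightest probe set of each gene was tested, over 13139 genes, the same differences passed narrowly (adjusted p = 0.04999 for *Esrp1* and 0.0442 for *Esrp2*, from limma), and 3 of the 10 genes were then called ventrally, *Grhl2* among them, beside 4.09% of the 13139 genes. The second *Esrp2* probe set, 1419977_s_at, lay between 4.40 and 4.65, below the 40th percentile on all 4 arrays, and was not tested.

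*Epcam* is the member most often used to mark epithelium, and neither of its probe sets passed the test. The bright probe set 1416579_a_at read 9.69 and 9.86 dorsally and 10.19 and 9.99 ventrally. Both ventral arrays lay above both dorsal arrays, and the gap between the nearest arrays was smaller than the spread within either part. The difference was -0.31 (standard error 0.17, 95% interval -0.69 to 0.06, adjusted p = 0.419 from limma), and by number -0.49 and -0.13. Probe set 1447899_x_at read 7.09 and 7.40 dorsally and 7.20 and 8.27 ventrally. Its ventral arrays differed from each other by 1.07, the widest spread of the 16 probe sets, and only ventral array 2 stood above the dorsal range. Its difference was -0.50 (95% interval -1.14 to 0.15, adjusted p = 0.464 from limma), and without ventral replicate 2 it was 0.04.

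The protease inhibitors had unlike values. *Spint1* read 7.34 and 7.33 dorsally and 8.20 and 7.66 ventrally, with no overlap. The difference was -0.59 (standard error 0.20, 95% interval -1.04 to -0.15, adjusted p = 0.141 from limma), and by number -0.86 and -0.33. *Spint2* read 9.96 and 9.98 dorsally and 10.15 and 9.98 ventrally by probe set 1438968_x_at, the brightest of the 16. Ventral array 2 of *Spint2* exceeded the higher dorsal array by less than the arrays of a part usually differed, and its other probe set, 1451935_a_at, had means of 9.44 ± 0.09 dorsally and 9.61 ± 0.21 ventrally (SD, n = 2), with overlap. Their differences were -0.09 (95% interval -0.46 to 0.27, adjusted p = 0.820 from limma) and -0.17 (95% interval -0.55 to 0.22, adjusted p = 0.691 from limma).

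*Rab25* read 6.71 and 6.73 dorsally and 7.32 and 7.13 ventrally. The dorsal arrays were nearly equal and the ventral arrays both lay above them. The difference was -0.50 (standard error 0.16, 95% interval -0.87 to -0.14, adjusted p = 0.131 from limma), and by number -0.60 and -0.40. Together with *Grhl2*, *Esrp1*, *Esrp2*, *Spint1* and *Grhl3*, it made up the 6 probe sets at an unadjusted p under 0.05. Of the 6, *Grhl3* passed the filter only through the ventral arrays. Over all 16 probe sets the dorsal minus ventral value was below 0 within the arrays numbered 1 for 13, within those numbered 2 for 13 and within both for 11. The matching shares of all probe sets were not counted. They need not be equal, since the upper quartile was lower on ventral array 2 (7.75) than on ventral array 1 (8.02).

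**Figure D2:**
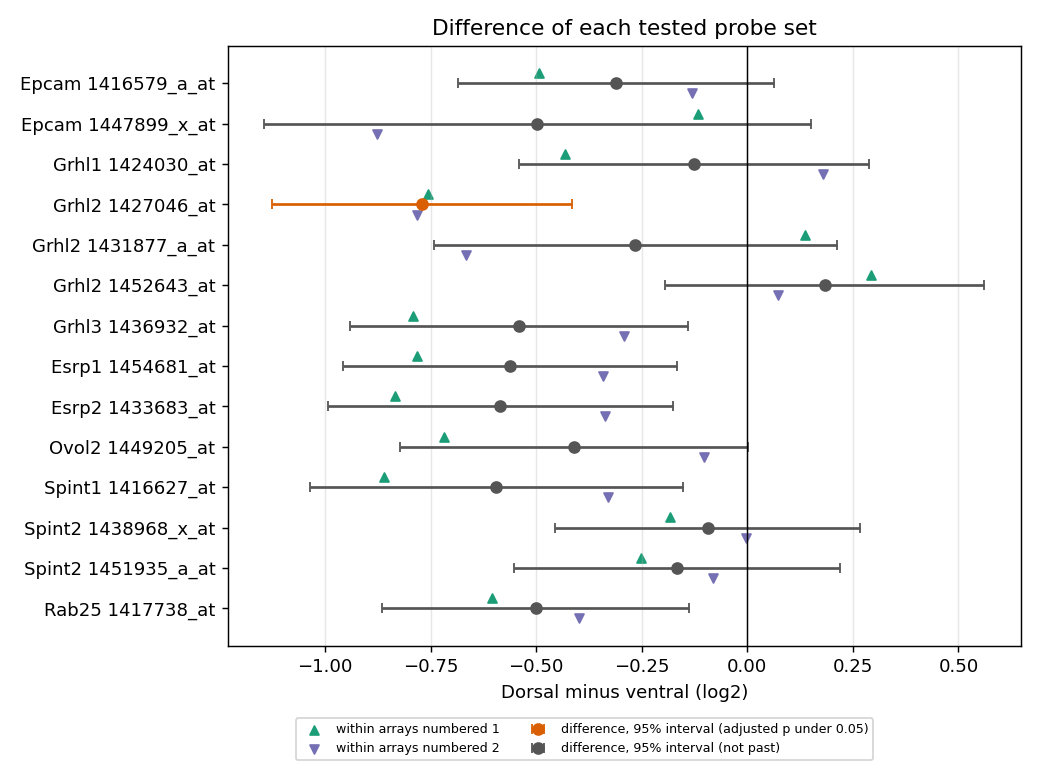
Dorsal minus ventral difference (log2, horizontal axis) of each of the 14 tested probe sets (vertical axis), with points for the difference from limma, bars for its 95% interval and triangles for the differences within the arrays of each number. Only *Grhl2* 1427046_at, at -0.77, passed the test, and *Grhl2* 1452643_at, at 0.18, lies on the dorsal side.

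To compare the other members with the usual marker of epithelium, the values were also taken relative to *Epcam* 1416579_a_at on the same array. Relative to it, *Grhl2* 1427046_at differed by -0.46, with -0.26 and -0.65 within the arrays numbered 1 and 2, and *Spint1*, *Esrp2*, *Esrp1*, *Grhl3* and *Rab25* differed by -0.28, -0.27, -0.25, -0.23 and -0.19. For each of these the ventral arrays lay above the dorsal arrays with this reference. On the other side, *Spint2* 1438968_x_at differed by 0.22, *Grhl1* by 0.19 and *Grhl2* 1452643_at by 0.50, with the dorsal arrays above. *Ovol2*, at -0.10, overlapped. An exact permutation test gave p = 0.333 (two-sided, n = 2 arrays per part) for each that did not overlap, the smallest it can give, so at this size the test cannot call any of them. With the mean of *Epcam*, *Cdh1* and *Krt8* as the reference, *Grhl2* 1427046_at differed by -0.34, *Rab25* by -0.08 and *Spint2* 1438968_x_at by 0.33. *Grhl3*, at -0.12, then overlapped. With the mean of both *Epcam* probe sets *Grhl2* 1427046_at differed by -0.37 and *Spint1*, *Esrp2*, *Esrp1*, *Grhl3* and *Rab25* by -0.19 to -0.10, and the arrays of all 6 overlapped.

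**Figure D3:**
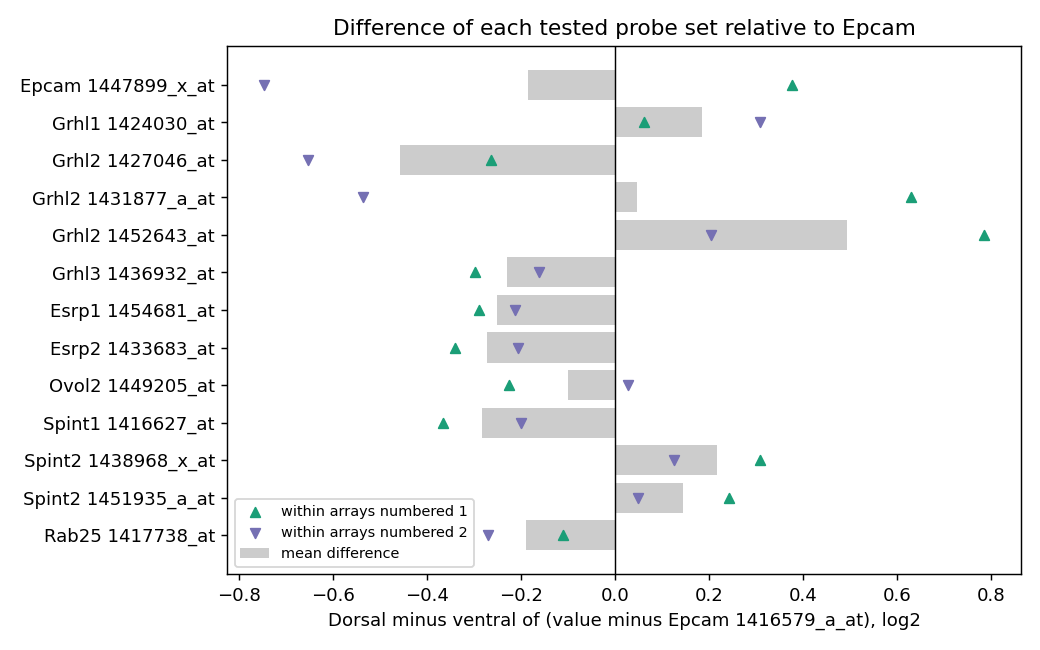
Dorsal minus ventral difference of each tested probe set after subtraction of the *Epcam* 1416579_a_at value of the same array (log2, horizontal axis), with bars for the mean difference and triangles for the differences within the arrays of each number. *Grhl2* 1427046_at reaches -0.46 and *Grhl2* 1452643_at reaches 0.50, and for *Epcam* 1447899_x_at, *Grhl2* 1431877_a_at and *Ovol2* the numbers fall on opposite sides of 0.

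The stretches of DNA before the start of these genes are shown because grainyhead-like factors bind the letters AACCNGTT and the ZEB and SNAIL repressors of the epithelial state bind the E-box CACCTG. RefSeq windows on the mouse assembly GRCm38.p6 matched 7 of the 10 genes (not *Grhl2*, *Esrp1* and *Esrp2*), and the 250 bases before each start were searched on both strands. The grainyhead letters were found for 1 of the 7, *Rab25*, and in 1.79% of all 32851 windows of that length. The E-box letters were found for 4 of the 7, *Epcam*, *Grhl3*, *Rab25* and *Spint2*, and in 17.2% of all windows. The motifs do not overlap each other in these windows. In *Rab25* the grainyhead letters begin 102 bases before the start, and its E-boxes begin 64 and 53 bases before it. A match is a description of the letters and not of binding. The windows of *Rab25*, *Epcam*, *Grhl3* and *Spint1* are printed 5′ to 3′ along the gene, with the motif letters in capitals, and that of *Spint1* holds neither motif.
Rab25, chr3:88548280-88548529, minus strand: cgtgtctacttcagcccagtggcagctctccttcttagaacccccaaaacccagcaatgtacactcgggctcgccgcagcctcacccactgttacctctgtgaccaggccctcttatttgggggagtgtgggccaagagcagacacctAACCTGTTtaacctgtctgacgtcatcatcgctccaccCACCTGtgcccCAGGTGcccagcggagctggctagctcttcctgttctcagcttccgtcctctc
Epcam, chr17:87635729-87635978, plus strand: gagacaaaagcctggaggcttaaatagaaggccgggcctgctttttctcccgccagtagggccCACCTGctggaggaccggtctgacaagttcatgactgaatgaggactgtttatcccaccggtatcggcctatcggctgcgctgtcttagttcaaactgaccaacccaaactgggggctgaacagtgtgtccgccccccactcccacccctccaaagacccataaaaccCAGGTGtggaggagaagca
Grhl3, chr4:135573633-135573882, minus strand: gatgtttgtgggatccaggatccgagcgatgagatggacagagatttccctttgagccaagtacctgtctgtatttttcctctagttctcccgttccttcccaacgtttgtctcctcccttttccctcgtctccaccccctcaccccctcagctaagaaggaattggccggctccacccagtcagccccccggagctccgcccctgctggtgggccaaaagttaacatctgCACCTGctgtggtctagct
Spint1, chr2:119237110-119237359, plus strand: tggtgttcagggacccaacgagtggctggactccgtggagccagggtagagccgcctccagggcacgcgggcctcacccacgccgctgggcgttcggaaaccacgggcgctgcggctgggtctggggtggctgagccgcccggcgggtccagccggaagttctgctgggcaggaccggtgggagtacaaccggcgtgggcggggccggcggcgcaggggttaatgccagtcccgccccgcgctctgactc

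The other genes of the epithelial program had the same lean as the regulators, but both lists were chosen with earlier results of these data known. Their likeness is therefore a description and not independent support. A list of 33 such genes held proteases that SPINT1 and SPINT2 restrain and proteins of tight junctions, desmosomes, polarity and vesicle traffic. Each gene was read by its brightest probe set, and 29 were tested. In value 26 of the 29 were higher ventrally, as were 38.4% of all tested genes, and the median difference was -0.50, beside 0.07 over all tested genes. By limma 3 were called ventrally and 0 dorsally, beside 3.01% and 3.44% of the 13139 genes read that way, and at an unadjusted p under 0.05 there were 16 ventrally and 1 dorsally, beside 7.02% and 9.39% of those genes. For 20 of the 29 both ventral arrays lay above both dorsal arrays, beside 17.6%. *Rab11fip1* passed the filter only through the ventral arrays, so its place among the 29 already depends on a higher ventral value. The called genes were *Marveld3*, *Marveld2* and *Lad1*, and 11 were called ventrally when p-values were adjusted over 1 probe set per gene, where 4.09% of all genes were.

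*Marveld3* and *Marveld2* encode tight junction proteins, the latter known as tricellulin, and *Lad1* encodes ladinin, a basement membrane-associated protein. *Marveld3* read 7.09 and 7.21 dorsally and 8.08 and 7.87 ventrally, a difference of -0.82 (adjusted p = 0.0145 from limma). *Marveld2* read 6.21 and 6.20 dorsally and 7.17 and 6.78 ventrally, a difference of -0.77 (adjusted p = 0.0312 from limma). *Lad1* read 7.52 and 7.50 dorsally and 8.44 and 8.13 ventrally, a difference of -0.78 (adjusted p = 0.0235 from limma). In all 3 the parts did not overlap. None of the 3 passed without either dorsal array, where 0 genes of the list were called by limma. The proteases themselves, matriptase (*St14*) and prostasin (*Prss8*), differed by -0.40 and -0.64 (adjusted p = 0.336 and 0.0788 from limma), and *Cdh1*, which encodes E-cadherin, by -0.53 (adjusted p = 0.114 from limma). The only members of the list with higher dorsal values were *Perp* (0.47), *Lsr* (0.22) and *Evpl* (0.17), and none passed the test.

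The genes of foregut endoderm did not all lean one way. In a list of 9 tested genes of foregut endoderm, 1 was called ventrally and 0 dorsally, beside 3.01% and 3.44% of the 13139 genes. The median difference of the list was -0.10. *Shh*, the hedgehog ligand of the ventral foregut, read 10.45 and 10.38 dorsally and 13.22 and 12.93 ventrally, a 6.32-fold difference that no regulator described here approached. The cytokeratin gene *Krt8* differed by -0.43, *Krt18* by -0.09 and *Foxa1* by -0.63 (adjusted p = 0.262, 0.851 and 0.0634 from limma). *Sox2* and *Krt19* had higher dorsal values, with differences of 0.57 and 0.59 (adjusted p = 0.0707 and 0.162 from limma). *Sox9* differed by 0.28 and *Nkx2-1* by -0.10, both with overlap, and *Foxa2* by -0.36. None of these passed the test.

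Of the transcription factors that oppose the epithelial state, 1 was called dorsally and 0 ventrally. All 7 tested genes of that list, *Zeb1*, *Zeb2*, *Snai1*, *Snai2*, *Twist1*, *Twist2* and *Tcf4*, had higher dorsal values, as did 61.6% of all tested genes, and their median difference was 0.35, beside 0.07. *Snai2* passed the test. It read 11.71 and 11.76 dorsally and 10.96 and 10.97 ventrally, a difference of 0.77 (adjusted p = 0.0161 from limma), and *Snai2* is also a gene of neural crest. *Zeb1*, which represses *Grhl2* in human breast cell lines, differed by 0.08 (95% interval -0.27 to 0.44, adjusted p = 0.841 from limma). Of 16 tested mesenchymal genes 5 were called dorsally and 0 ventrally, beside 3.44% and 3.01% of the 13139 genes. Their median was 0.55, and *Prrx1*, *Col1a1*, *Lum* and *Meox1* had the largest differences, from 2.01 to 3.08. The list was not uniform, since 3 of the 16 had higher ventral values, *Tcf21* (-0.71), *Cdh11* (-0.18) and *Vim* (-0.07). None of these 3 passed the test.

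**Figure D4:**
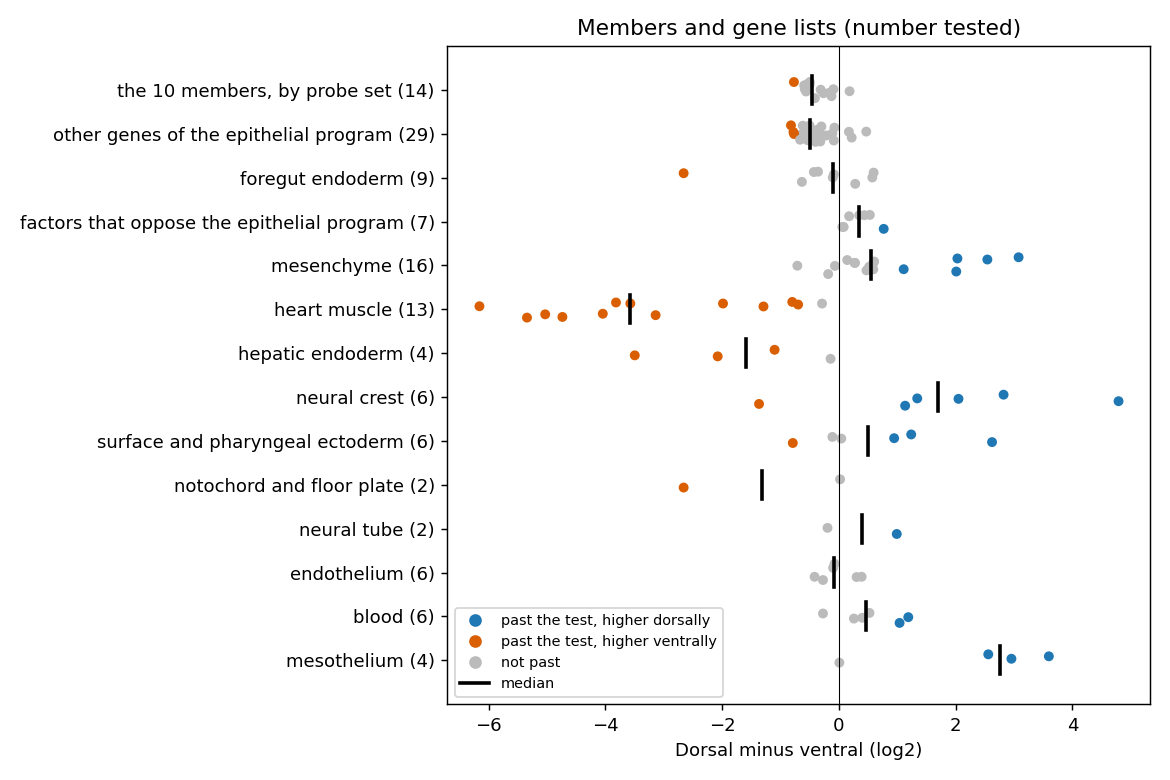
Dorsal minus ventral difference (log2, horizontal axis) of the tested probe sets of the regulators and of the tested genes of each list (vertical axis, with the number tested), where a point is a probe set or gene, its colour the limma call, and the bar the median. The regulators, with a median of -0.45, and the other genes of the epithelial program, with -0.50, lie in a narrow band, while heart muscle genes reach -6.16.

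Many markers of other tissues differed between the parts by more than any regulator. Of 4 tested hepatic genes, which mark another endodermal epithelium, *Afp*, *Ttr* and *Hhex* were called ventrally (-3.50, -2.08 and -1.10), and the summed level of the list was on the log2 scale 9.32 to 9.34 dorsally and 11.37 to 11.56 ventrally. *Alb* was below the 40th percentile on 3 arrays. Of 13 heart muscle genes 12 were called ventrally and 0 dorsally, with a summed level of 11.30 to 11.33 dorsally and 14.12 to 14.50 ventrally. Of 6 genes of surface and pharyngeal ectoderm, *Tfap2a*, *Tfap2c* and *Krt15* were called dorsally and *Trp63* ventrally, with a summed level of 9.61 to 9.64 dorsally and 8.59 to 8.60 ventrally. Of 4 mesothelial genes *Bnc1*, *Wt1* and *Upk3b* were called dorsally (2.56 to 3.60). Neural crest genes were called dorsally for 5 of 6, with *Ednrb* called ventrally. The summed level of the mesenchymal list was 15.11 to 15.15 dorsally and 14.62 to 14.96 ventrally. Of 6 endothelial genes 0 were called by limma, with 1 at an unadjusted p under 0.05 (*Kdr*, -0.42). Of 6 blood genes *Alas2* and *Hba-x* were called dorsally (1.19 and 1.04), and of 2 neural tube genes *Neurod1* was called dorsally (0.99). The notochord list had 2 tested genes, *Chrd* (0.02, not past the test) and *Shh*, whose ventral call is the one already given under foregut endoderm. Of all 13139 genes read by their brightest probe set, 3.01% were called ventrally and 3.44% dorsally. *Neurod1*, *Foxd3* and *Wt1* passed the filter only through the dorsal arrays, and *Myh6* and *Ryr2* only through the ventral arrays. Their place among the tested genes therefore already depends on the direction of their difference. The part of any of these tissues in the small differences of the regulators was not tested.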

How the data were processed

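Values of 4 Affymetrix arrays were used, 2 per part. Starting from 100 ng of RNA, the authors hybridised each sample to 1 array and computed RMA values (submitters' processing notes). The deposited values are read as log2 values from their range of 2.36 to 15.02, and the sources used here name no software version. Symbols were those of the GEO platform annotation, with identifiers looked up in RefSeq (GRCm38.p6). Of 45101 probe sets, 34958 had 1 symbol, 932 had several and 9211 were not named here; the latter groups were not used. A probe set entered the test if 2 or more arrays had it above their 40th percentile. The dorsal minus ventral contrast was fitted by limma 3.58.1 (lmFit, eBayes; R 4.3.3), two-sided and without a replicate term, with Benjamini-Hochberg adjustment over 23336 probe sets and a threshold of 0.05. Genes of a list were read by their brightest probe set. The test was run on simulated data first. The members and the lists were chosen with earlier results of these data known. Named are all members, up to 4 called genes of a list with the largest differences, and further list genes, among them *Cdh1*, *Krt8*, *Krt18*, *Krt19*, *Foxa1*, *Sox2*, *St14*, *Prss8*, *Zeb1*, *Perp*, *Lsr*, *Evpl* and *Alb*, chosen after their values were seen. Alternatives covered filter, normalization, unit of test, variance model, block, threshold and omitted arrays.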

Additional observations from a re-analysis of the deposited data

How the results depend on the processing

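The counts of calls depended on the settings more than the differences did. With the values quantile-normalized once more, 3 of the regulators' probe sets were called ventrally (*Grhl2*, *Esrp1*, *Rab25*) and 11 other epithelial genes were. With 1 probe set a gene these counts were 3 and 11, and with probe sets averaged by gene 0 and 6. At an adjusted p of 0.01 they were 0 and 0, and at 0.1 1 and 10. Filtered at the 60th percentile they were 1 and 8, and all are counts by limma. Over all tested probe sets, 684 of 23336 were called ventrally after the repeated normalization, and 758 of 23336 at 0.1. At the 60th percentile 502 of 16513 were, and with 1 probe set a gene 538 of 13139. The tested regulators were 14 probe sets in the main test, 9 at the 60th percentile and 10 with 1 probe set a gene. Averaging by gene gave 441 dorsal and 408 ventral calls among 12381 genes, fewer units than the 23336 probe sets, and the threshold of 0.01 left 411 dorsal and 394 ventral calls, against 765 and 597. *Grhl2* 1452643_at turned to -0.24 when its gene's probe sets were averaged.

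The replicate numbers share a level of the poly-A controls, and deviations of same-numbered arrays from their part means correlated at 0.21, but with 2 pairs the numbers are not shown to pair the samples. With the replicate number as a block, 5 of the regulators' probe sets were called ventrally (*Grhl2*, *Grhl3*, *Esrp1*, *Esrp2*, *Spint1*). So were 13 other epithelial genes, and there were 1389 dorsal and 937 ventral calls in all. Of the 5, *Grhl3* passed the filter only through the ventral arrays, so its place among them already depends on a higher ventral value.

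Leaving out 1 array at a time gave 296 to 6739 dorsal and 354 to 2149 ventral calls over all probe sets, 0 to 7 calls of the regulators ventrally, 0 to 15 of the other epithelial genes ventrally and 0 to 2 dorsally. The median difference of the regulators was -0.35 over 14 probe sets without dorsal replicate 1 and -0.54 over 13 without dorsal replicate 2. It was -0.38 over 11 without ventral replicate 1 and -0.36 over 12 without ventral replicate 2. Over all tested probe sets the medians were 0.07, 0.08, 0.19 and -0.003 in the same order. With 3 arrays the lone array is assumed to vary like the remaining pair. *Epcam* 1447899_x_at ranged from -1.03 without ventral replicate 1 to 0.0375 without ventral replicate 2, and *Grhl2* 1431877_a_at from -0.58 to 0.0530 likewise.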
